A study of Homo sapiens with 6 samples.

Results

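Genes of ribosome biogenesis and the nucleolus, which encode the proteins that assemble ribosomes, were measured by RNA sequencing in RS4;11 cells grown with or without asparagine. The group held 57 genes from a fixed list, matched by symbol to the 11911 genes of the deposited table. All 57 were in the table and all passed a filter on low values (at least 1 CPM, a read count scaled to library depth, in 3 or more libraries), as did 11892 genes in total. RS4;11 is a long-established cell line grown from acute lymphoblastic leukemia of the B-cell precursor type, with a KMT2A fusion, and it stands here for a single leukemia in culture. The sample titles give asparagine as present in 3 libraries and as absent in the other 3, and RNA of the depleted arm was taken 16 hours after withdrawal. All 6 samples carry the same treatment entry, an asparagine-free medium made with dialyzed serum, so the labels do not say how asparagine was supplied to the arm that had it. All 6 column names begin with Ctrl, and what this prefix marks was not established. The names of the arm with asparagine hold unt, which was taken as untreated. The column names of the depleted arm may abbreviate asparaginase, while the titles speak only of asparagine, and the arms are called here "with asparagine" and "depleted".

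Ribosomes are built mainly in the nucleolus. RNA polymerase I transcribes a long precursor RNA there, small nucleolar ribonucleoproteins (snoRNPs) guide its chemical modification and some of its cleavages, and large sets of assembly factors fold and trim it into the small and the large subunit. Box C/D snoRNPs guide ribose methylation and box H/ACA snoRNPs guide the conversion of uridine to pseudouridine. Many snoRNAs are excised from introns of genes whose own products serve ribosome synthesis. The transcription factor MYC is known to drive much of this gene set in proliferating cells, leukemia included.

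The table held 29971364 to 51127073 reads per library, and the fewest reads behind a value of a listed gene were 173, for PPAN. Depleted library 1 stood apart from the other depleted libraries, with a correlation of log2(CPM + 1) across genes of 0.940 and 0.933 against 0.996 between depleted libraries 2 and 3. The 3 libraries with asparagine correlated at 0.992 to 0.996. In depleted libraries 2 and 3, unlike in library 1, the difference from the arm with asparagine followed the GC content of the transcripts. Counts are therefore given below also without library 1 and after a correction for GC content. Genes over 55% GC made up 38.9%, 25.3% and 24.6% of the table in depleted libraries 1 to 3. The arm with asparagine also varied, less widely, with 41.5%, 41.6% and 37.6% in its libraries 1 to 3. All 10 markers of B-cell precursors in the list used were in the table, with summed levels of 4125 to 4409 CPM with asparagine and 3163 to 4105 CPM in the depleted libraries. DNTT was the lowest of them in every library. Single markers changed in opposite directions, which the sums hide. IGLL1 went from 920, 863 and 780 CPM to 418, 180 and 171 CPM. PAX5 went from 998, 1016 and 999 CPM to 1460, 1283 and 1257 CPM. Of 5 myeloid markers 2 were in the table, of 5 T or NK cell markers 1, of 4 erythroid markers 0, and of 5 stromal or epithelial markers 1. Their sums reached 33.3, 69.2, 0 and 4.47 CPM at most in any library.

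Transcripts of the ribosome biogenesis genes were lower without asparagine. With limma on log2(CPM + 1), 47 of the 57 fell and none rose at a Benjamini-Hochberg adjusted p under 0.05. Across all genes tested, 26.2% were lower and 25.1% higher. The median log2 fold change was -0.86 for the 57 genes, with a range of -2.46 to 0.27, against 0.01 for all genes tested. When each library was left out in turn, 38 to 47 of the 57 fell, against 15.3% to 41.3% of all genes. At least 2-fold lower on this scale and past the threshold were 25 of the 57, against 11.3% of all genes. The depleted values lay wholly below those with asparagine in 48 of the 57, against 30.8% of all genes, and wholly above in 0, against 30.2%. In these bulk samples, less of a transcript per cell and fewer cells that carry it cannot be told apart. The values are scaled to each library, so a change in total RNA per cell would not be seen.

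Summed over the 57 genes, expression was 10476, 10702 and 10879 CPM in the 3 libraries with asparagine and 5583, 5290 and 5304 CPM in depleted libraries 1 to 3. The groups were far apart, and the sums within each group lay close together. In the depleted arm this closeness hid opposite differences by GC content. The listed genes under 45% GC summed to 1241, 1725 and 1771 CPM in depleted libraries 1 to 3. Those over 55% GC summed to 1900, 1197 and 1172 CPM. The 57 genes made up 1.018% to 1.068% of the table with asparagine and 0.572% to 0.586% without it. In depleted library 1, which stood apart at the level of all genes, each of the 57 was below its mean with asparagine, against 48.9% of all genes. In depleted libraries 2 and 3 the same held for 51 of the 57 each, against 50% and 50.2% of all genes. The median differences of the 57 genes in the 3 depleted libraries were -0.75, -0.90 and -0.97 on the log2(CPM + 1) scale.

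**Figure D1:**
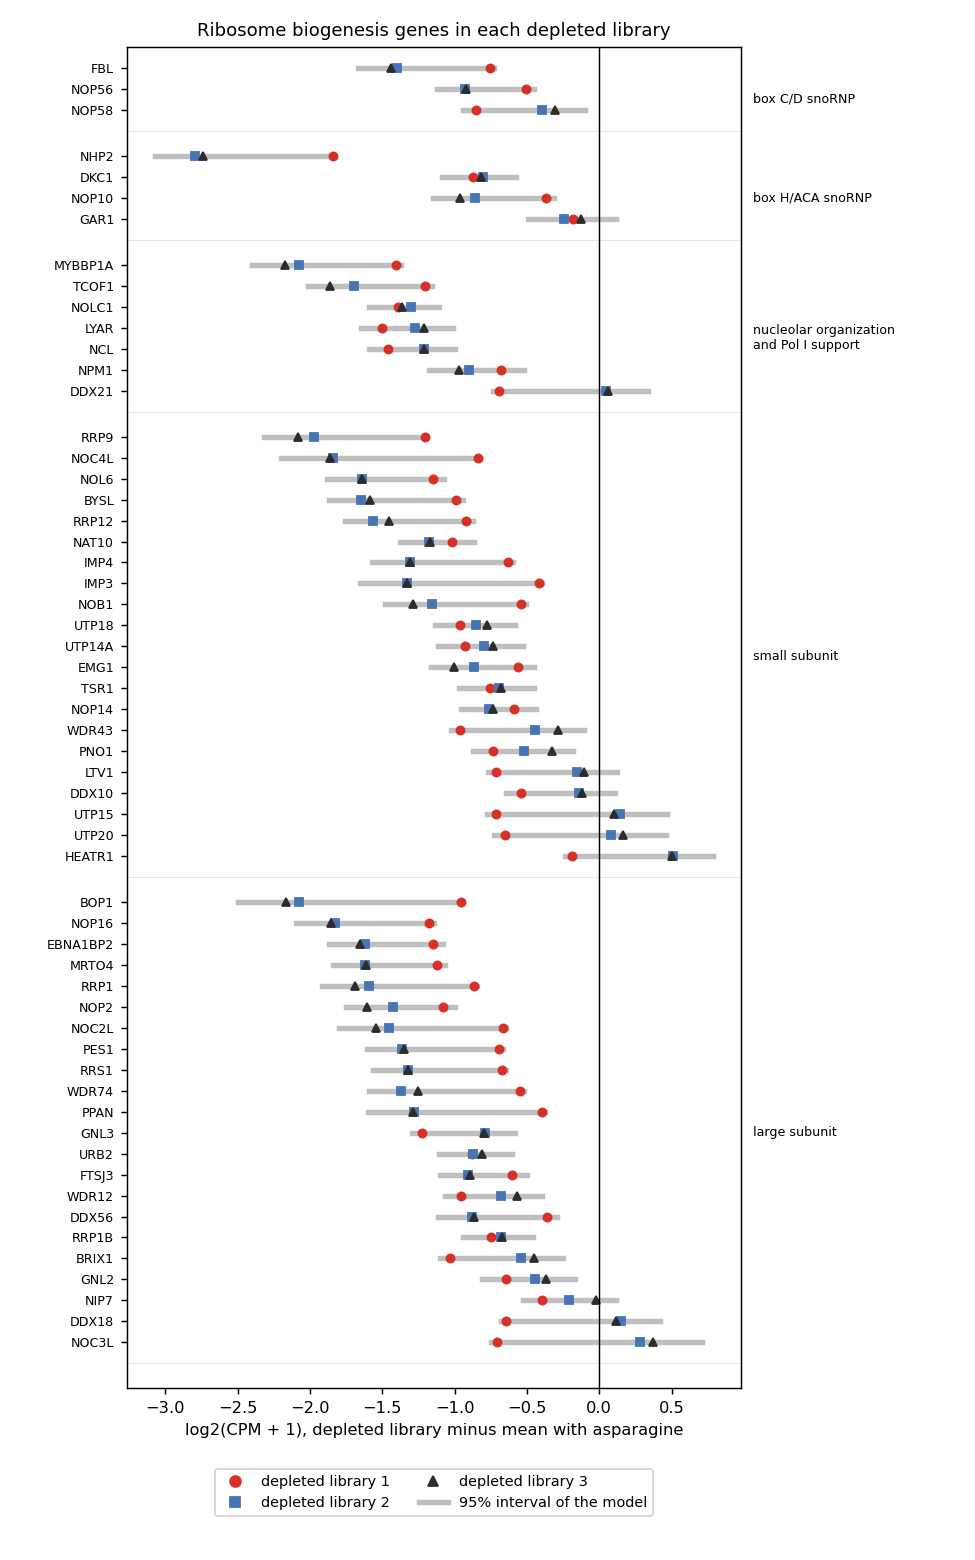
Difference from the mean with asparagine, in log2(CPM + 1), of each of the 57 genes in each depleted library, ordered by role, with the 95% interval of the fitted difference as a grey bar. All 57 points of depleted library 1 lie left of 0, and 51 of the 57 do in depleted libraries 2 and 3.

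The 3 listed proteins of the box C/D snoRNP all fell, where 26.2% of all genes tested were lower. FBL, fibrillarin, is the methyltransferase of the complex, and NOP56 and NOP58 form its core with it and with SNU13. SNU13, which was not among the 57, also fell, from 211, 215 and 197 CPM to 138, 103 and 108 CPM, with no overlap (log2 fold change -0.84, SE 0.14, adjusted p = 0.00401). FBL was at 267, 281 and 269.8 CPM with asparagine and at 162, 103 and 99.8 CPM in the depleted libraries, 2.25-fold lower in the mean. Its log2 fold change was -1.20 (SE 0.20, adjusted p = 0.00343). NOP56 went from 521, 539.5 and 519 CPM to 369.7, 277 and 277 CPM, or -0.79 as a log2 fold change (SE 0.14, adjusted p = 0.0049). For both genes the depleted values lay below all values with asparagine, and depleted library 1 was the highest of the depleted libraries. NOP58 went from 175, 155 and 192 CPM to 95.4, 131 and 139.9 CPM, or -0.52 as a log2 fold change (SE 0.18, adjusted p = 0.0456). Its groups did not overlap either, but here depleted library 1 was the lowest. The NOP58 call was lost when any of the 3 libraries with asparagine or depleted library 2 was left out (adjusted p = 0.0804 to 0.147).

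Of the 4 proteins of the box H/ACA snoRNP, 3 fell, against 26.2% of all genes. NHP2, a core protein of this complex, had the largest decrease of the 57 genes and ranked at position 49 of 11892 by log2 fold change, counted from the most reduced. It lies at chr5:178149460-178153967 (GRCh38, minus strand) and was at 182, 189.9 and 175 CPM with asparagine and at 50.1, 25.4 and 26.4 CPM without it. The mean was 5.36-fold lower, and the log2 fold change was -2.46 (SE 0.26, adjusted p = 0.000724). The groups were widely separated, and depleted library 1 was the highest of the depleted libraries. Exons of NHP2 overlap RMND5B on the other strand by 414 bases. DKC1, dyskerin, the pseudouridine synthase itself, went from 260.3, 292 and 289 CPM to 153, 160.3 and 159 CPM, or -0.83 on the log2 scale (SE 0.11, adjusted p = 0.00146). NOP10, the smallest core protein, went from 77.1, 77.9 and 75.1 CPM to 59.2, 41.8 and 38.8 CPM, or -0.73 on the log2 scale (SE 0.18, adjusted p = 0.0141). DKC1 was even across the depleted libraries, whereas NOP10 was higher in library 1 than in the others. The NOP10 call was lost without library 1 or 2 of the arm with asparagine or without depleted library 2 (adjusted p = 0.0564 to 0.0595). GAR1 was at 39.6, 46.2 and 47.2 CPM with asparagine and at 38.8, 37.1 and 40.3 CPM without it, so the groups overlapped. Its log2 fold change of -0.19 had a 95% interval of -0.49 to 0.12 (adjusted p = 0.253), which excludes a decrease of the size seen for DKC1 or NHP2.

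**Figure D2:**
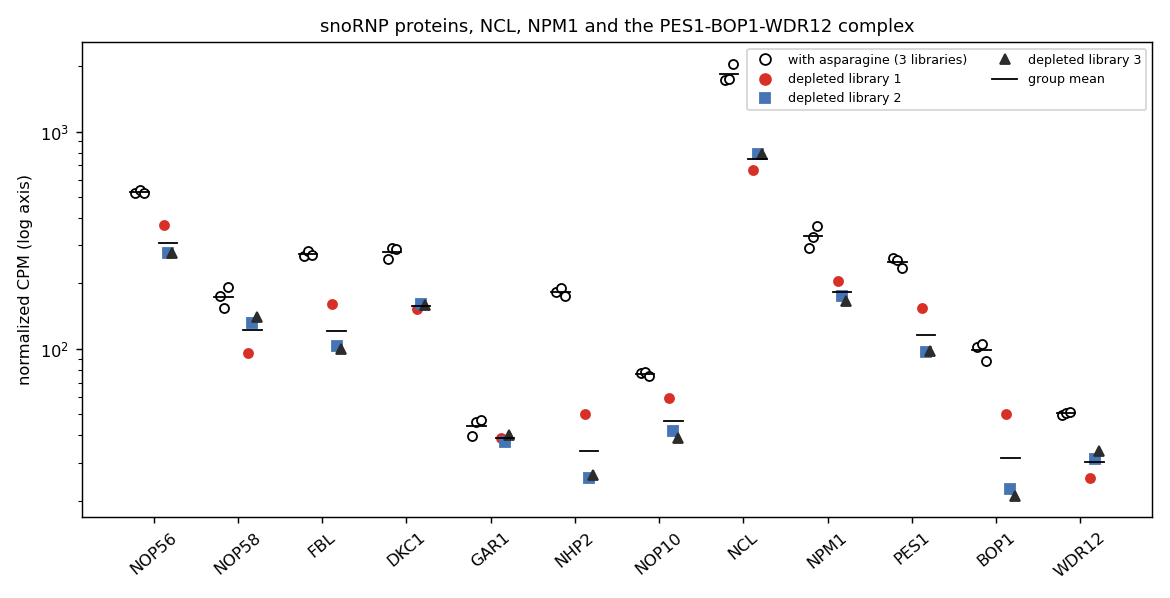
Normalized CPM on a log axis of the snoRNP proteins, NCL, NPM1 and the PES1, BOP1 and WDR12 complex in each library, with lines at the group means. GAR1 is the only one of these 12 genes whose depleted points reach into the range with asparagine.

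Among the genes of nucleolar organization and RNA polymerase I support, 6 of 7 fell, against 26.2% of all genes. Their median log2 fold change was -1.33. NCL, nucleolin, is an abundant protein of the nucleolus that binds the precursor RNA. It lies at chr2:231453531-231483641 (GRCh38, minus strand) and had the highest level per kilobase of exon of the 57 genes, 265 CPM per kilobase with asparagine and 108 without it. NCL was at 1723, 1742 and 2045 CPM with asparagine and at 666, 789 and 789.9 CPM in the depleted libraries, or -1.29 on the log2 scale (SE 0.12, adjusted p = 0.000539). MYBBP1A, a nucleolar binding protein of MYB, went from 338, 336 and 286 CPM to 120.0, 74.95 and 70.02 CPM, 3.62-fold lower in the mean (log2 fold change -1.88, SE 0.22, adjusted p = 0.00099). TCOF1, treacle, which supports transcription by RNA polymerase I, went from 374, 376 and 354 CPM to 159, 113 and 101 CPM (log2 fold change -1.59, SE 0.18, adjusted p = 0.000945). None of these 3 genes overlapped between the groups. NOLC1, a chaperone of snoRNPs, fell by 1.35 and LYAR, a nucleolar regulator of growth, fell by 1.33 on the log2 scale.

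NPM1, nucleophosmin, the chaperone that scaffolds the granular part of the nucleolus, had the smallest decrease of these 6. It went from 292, 328 and 367 CPM to 205, 175 and 167 CPM, with no overlap (log2 fold change -0.85, SE 0.14, adjusted p = 0.00334). GENCODE names 45 NPM1 pseudogenes, so reads may be shared with near-identical copies and its level is uncertain. DDX21, an RNA helicase of the nucleolus, was at 325, 301 and 380.5 CPM with asparagine and at 206, 345 and 347 CPM without it. Depleted library 1 was the lowest of the 6 and the others lay within the range with asparagine (log2 fold change -0.20, 95% interval -0.73 to 0.34, adjusted p = 0.483). The level of the precursor ribosomal RNA entry, RNA45S5, was 763, 678 and 421 CPM with asparagine and 489, 259 and 308 CPM without it, with overlap and an adjusted p of 0.0567 (log2 fold change -0.83). The selection step of the library is not given in the sources used here, so how fully that RNA was captured is unknown.

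Of the 21 small subunit factors, 16 fell and none rose, against 26.2% lower and 25.1% higher of all genes. Their median log2 fold change was -0.82. RRP9, a protein of the U3 snoRNP that guides early cleavage, went from 113, 117 and 106 CPM to 48.0, 27.8 and 25.7 CPM, 3.31-fold lower in the mean (log2 fold change -1.75, SE 0.24, adjusted p = 0.00166). NOC4L, an assembly factor of the small subunit, went from 83.0, 84.2 and 68.7 CPM to 43.3, 21.2 and 20.8 CPM (log2 fold change -1.51, SE 0.29, adjusted p = 0.00585). NAT10, the cytidine acetyltransferase of ribosomal RNA, went from 274, 289 and 285 CPM to 139, 125 and 125 CPM (log2 fold change -1.12, SE 0.11, adjusted p = 0.000552). In RRP9 and NOC4L depleted library 1 was well above the other depleted libraries, while NAT10 was nearly even across them. PNO1, a factor of late maturation, had the smallest decrease past the threshold, from 51.0, 56.6 and 54.6 CPM to 32.0, 37.4 and 42.9 CPM (log2 fold change -0.53, SE 0.15, adjusted p = 0.023). Its groups did not overlap, and the call was lost without any one of the libraries with asparagine or without depleted library 2 (adjusted p = 0.0681 to 0.0975).

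The other small subunit genes that fell were NOL6 (log2 fold change -1.48), BYSL (-1.41), RRP12 (-1.31), IMP4 (-1.08), IMP3 (-1.03), NOB1 (-0.99), UTP18 (-0.86), UTP14A (-0.82), EMG1 (-0.81), TSR1 (-0.71), NOP14 (-0.69) and WDR43 (-0.56). IMP3 and IMP4 accompany U3, NOB1 is the nuclease of the final cut at the small subunit RNA, and EMG1 methylates that RNA. IMP3 lost its call without library 1 or 2 of the arm with asparagine or without depleted library 2 or 3 (adjusted p = 0.0571 to 0.0699). WDR43 lost its call without any of the libraries with asparagine or without depleted library 2 (adjusted p = 0.084 to 0.138). The 5 small subunit genes that did not pass the threshold were UTP15, UTP20, HEATR1, LTV1 and DDX10.

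HEATR1, a large scaffold of the early processome, was the only listed gene with a positive log2 fold change. It was at 123, 105 and 133 CPM with asparagine and at 105, 170.4 and 169.9 CPM without it. Depleted library 1 was just below the lowest value with asparagine and the others above the highest (log2 fold change 0.27, 95% interval -0.24 to 0.79, adjusted p = 0.312). UTP20 was at 85.2, 68.2 and 97.4 CPM and then at 52.3, 87.5 and 93.1 CPM (log2 fold change -0.13, adjusted p = 0.668), and UTP15 at 26.3, 22.1 and 30.8 CPM and then at 15.6, 29 and 28.2 CPM (-0.16, adjusted p = 0.635). Both belong to the early processome, and in both depleted library 1 alone was below the arm with asparagine. LTV1, an export and maturation factor, was at 60.4, 67.5 and 67.5 CPM and then at 39.3, 58.4 and 60.4 CPM (-0.32, adjusted p = 0.184). DDX10, a helicase, was at 38.8, 38.6 and 43.4 CPM and then at 27.3, 36.4 and 36.9 CPM (-0.27, adjusted p = 0.192). DDX10 was the only gene short of the threshold whose groups did not overlap.

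Promoters were read from RefSeq (GRCh38.p14) because many of these genes were lower together. Another reason was that MYC, which binds the E-box CACGTG, was itself lower (log2 fold change -1.12, adjusted p = 0.00166). MYC transcripts have a GC content of 58.7%. After the correction for GC content the log2 fold change of MYC was -0.66 (adjusted p = 0.000121). Whether MYC had a part in the changes was not tested. The window was the 250 bases before the gene start, and 48 of the 57 genes had an entry. The E-box, a palindrome that reads the same on both strands, was found in 7 of the 48 promoters (14.6%), in 9.20% of the 8972 tested genes with an entry and in 6.49% of all 27305 promoters. The 7 genes were NOP10, UTP14A, UTP18, UTP20, IMP4, NAT10 and EBNA1BP2. A match is a description of the sequence, not of binding. Shown are 3 of the matched promoters, chosen because their windows lay outside annotated exons, with the motif in capitals and up to 30 bases on each side, read on the strand of the gene.
UTP14A, chrX:129905914-129905958, plus strand: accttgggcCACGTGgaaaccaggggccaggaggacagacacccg
UTP18, chr17:51260427-51260492, plus strand: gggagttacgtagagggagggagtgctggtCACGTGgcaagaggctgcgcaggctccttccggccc
UTP20, chr12:101280065-101280104, plus strand: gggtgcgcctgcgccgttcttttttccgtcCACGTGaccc
Of these, UTP14A and UTP18 fell, while UTP20 with an E-box 10 bases from the start did not pass the threshold. Among the 48 genes, the median log2 fold change was -0.86 for the 7 with an E-box, of which 6 fell, and -0.85 for the 41 without it, of which 33 fell. Over all tested genes with an entry, 271 of the 825 with an E-box were lower, with a median of -0.14, and 2151 of the 8147 without it, with a median of 0.01.

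Of the 22 large subunit factors, 19 fell and none rose, against 26.2% lower and 25.1% higher of all genes. Their median log2 fold change was -0.96. PES1, BOP1 and WDR12 form a complex needed for maturation of the large subunit RNA, and all 3 fell. BOP1 went from 102, 105 and 88.3 CPM to 50.3, 22.6 and 21.1 CPM (log2 fold change -1.73, SE 0.32, adjusted p = 0.0054), and PES1 from 261, 255 and 236 CPM to 154, 96.8 and 97.7 CPM (-1.13, SE 0.20, adjusted p = 0.00427). WDR12 went from 49.5, 50.9 and 51.2 CPM to 25.6, 31.2 and 33.8 CPM (-0.73, SE 0.14, adjusted p = 0.00615). The groups of all 3 genes were separate, but the order of the depleted libraries differed: library 1 was the highest for BOP1 and PES1 and the lowest for WDR12. The transcripts of BOP1 and PES1 have a median GC content of 65.7% and 58.2%, and those of WDR12 of 40.2%.

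NOP16, an assembly factor of the large subunit, went from 106, 106 and 98.9 CPM to 45.3, 28.6 and 27.96 CPM, 3.06-fold lower in the mean (log2 fold change -1.62, SE 0.20, adjusted p = 0.00125). RRP1B, a nucleolar protein related to RRP1, went from 245, 257 and 254 CPM to 149.7, 157 and 158 CPM (-0.70, SE 0.10, adjusted p = 0.00222). Both were fully separated between the groups, and RRP1B was nearly the same in all depleted libraries. GNL2, a GTPase of large subunit assembly, had the smallest decrease past the threshold, from 94.6, 91.7 and 109 CPM to 62.3, 71.7 and 75.9 CPM (-0.49, SE 0.14, adjusted p = 0.0232), and lost the call without any of the libraries with asparagine or without depleted library 2 (adjusted p = 0.0651 to 0.0991). The other genes that fell were EBNA1BP2 (-1.47), MRTO4 (-1.45), RRP1 (-1.38), NOP2 (-1.37), NOC2L (-1.22), RRS1 (-1.11), WDR74 (-1.06), PPAN (-0.99), GNL3 (-0.94), URB2 (-0.85), FTSJ3 (-0.80), DDX56 (-0.70) and BRIX1 (-0.68). NOP2 and FTSJ3 are RNA methyltransferases and GNL3 is nucleostemin, a GTPase known from proliferating and stem cells. BRIX1 lost its call without any of the libraries with asparagine (adjusted p = 0.0632 to 0.0734). DDX56 and PPAN lost theirs without library 1 or 2 of the arm with asparagine or without depleted library 2 or 3 (adjusted p = 0.0527 to 0.0655 and 0.0582 to 0.0713).

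The 3 large subunit genes short of the threshold were NOC3L, NIP7 and DDX18. NOC3L, the partner of NOC2L in an assembly complex, was at 45.9, 35.4 and 50.5 CPM with asparagine and at 26.3, 53.0 and 56.5 CPM without it (log2 fold change -0.02, 95% interval -0.74 to 0.71, adjusted p = 0.964). DDX18, a helicase, was at 124, 118 and 145 CPM and then at 81.7, 143 and 139 CPM (-0.13, adjusted p = 0.662). In both genes depleted library 1 was the lowest of all 6 libraries while the other depleted libraries were within or above the range with asparagine. NIP7, a factor of the pre-ribosome, was at 72.3, 75.4 and 75.2 CPM and then at 56.2, 64.2 and 73.2 CPM, so only depleted library 3 reached the range with asparagine (-0.21, adjusted p = 0.229).

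The 10 genes that did not pass the threshold shared a feature that the list did not use: 9 of them have transcripts of under 45% GC, and their GC contents ran from 37.7% to 46.7%. By GC content, 9 of 18 listed genes under 45% fell, 17 of 18 between 45% and 55%, and 21 of 21 above 55%, with median log2 fold changes of -0.42, -0.82 and -1.31. All genes tested showed the same order, with medians of 0.49, 0.02 and -0.52, and with 254 of 3525, 1055 of 3981 and 1695 of 3827 lower. In each class the median of the listed genes was below that of all genes. Across the 57 genes GC content correlated with the difference at -0.13 for depleted library 1, and at -0.81 and -0.82 for depleted libraries 2 and 3. Across the 11333 tested genes with a GC value it was -0.04, -0.58 and -0.60. These are descriptions across genes of the same libraries, and genes are not independent replicates.

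**Figure D3:**
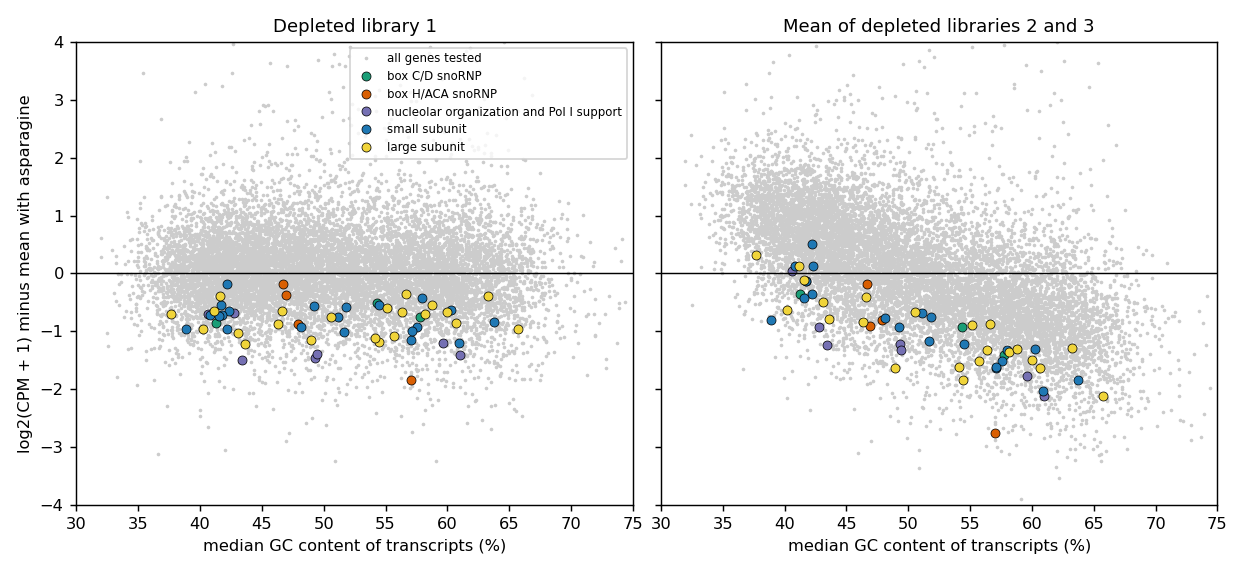
Difference from the mean with asparagine, in log2(CPM + 1), against the median GC content of a gene's transcripts in depleted library 1 (left) and in the mean of depleted libraries 2 and 3 (right), with all tested genes in grey and the 57 genes colored by role. The colored points form a level band below 0 on the left and a slope on the right (19 genes in each panel lie outside the axes).

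After removal of each library's trend with GC content, all 57 genes were lower at an adjusted p under 0.05, against 34.3% of all genes lower and 35.2% higher. Every depleted library was then below the mean with asparagine in all 57, against 41.2% of genes, where 51 of 57 and 35.6% had been before. The median log2 fold change stayed at -0.86, with a range of -2.07 to -0.16, and the 3 GC classes came to -0.89, -0.91 and -0.84. Low-GC genes moved down: NOP58 from -0.52 to -1.0, UTP18 from -0.86 to -1.45, WDR12 from -0.73 to -1.26 and LYAR from -1.33 to -1.70. For UTP18 depleted libraries 1 to 3 moved apart, from -0.96, -0.85 and -0.77 to -0.97, -1.71 and -1.68. Its SE rose from 0.12 to 0.21. NPM1 moved apart as well, from -0.68, -0.90 and -0.97 to -0.72, -1.47 and -1.58. Whether the correction went too far for such genes was not tested. High-GC genes moved up: BOP1 from -1.73 to -0.998, MYBBP1A from -1.88 to -1.33 and PPAN from -0.99 to -0.34. For BOP1 depleted libraries 1 to 3 came closer together, from -0.95, -2.07 and -2.17 to -0.84, -1.05 and -1.10. NHP2 was still the most reduced at -2.07, followed by LYAR at -1.70 and EBNA1BP2 at -1.54, and HEATR1 the least at -0.16 (adjusted p = 0.0478), followed by DDX56 at -0.33, PPAN at -0.34 and GAR1 at -0.37. The correction assumes that GC trends between libraries are not part of the response, and whether they are was not tested.

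**Figure D4:**
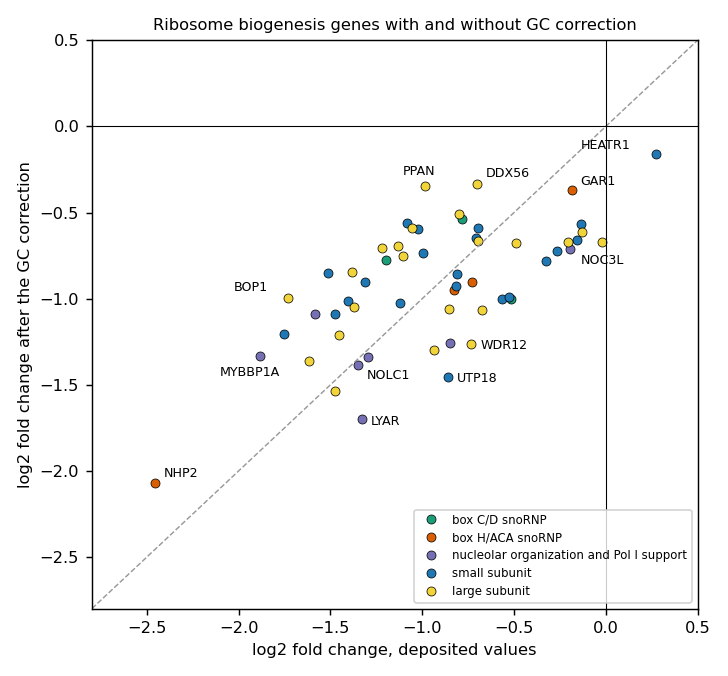
Log2 fold changes of the 57 genes from the deposited values (x axis) and after the GC correction (y axis), colored by role, with a dashed line where both are equal. All points lie below 0 on the y axis, and HEATR1 alone lies right of 0 on the x axis.

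Leaving depleted library 1 out, the same 47 genes were lower, against 41.3% of all genes, and HEATR1 and NOC3L were called higher, against 40.5%. Their log2 fold changes were then 0.51 (adjusted p = 0.000658) and 0.33 (adjusted p = 0.0435). With both the GC correction and that library left out, 56 of the 57 were lower, against 38.8% of genes, and none were higher. HEATR1 was the exception, at -0.13 (adjusted p = 0.0548). Its direction therefore depends on the GC correction. In the deposited values it also differed between depleted library 1 (-0.19) and depleted libraries 2 and 3 (0.51 and 0.50). Exons of HEATR1 overlap LGALS8 on the other strand by 2095 bases.

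Median log2 fold changes after the correction were -0.77 for box C/D, -0.93 for box H/ACA, -1.33 for nucleolar organization, -0.85 for the small and -0.73 for the large subunit, where the deposited values had given -0.79, -0.78, -1.33, -0.82 and -0.96. Differences between roles were not tested. Per kilobase of exon, NOP10 (138 CPM per kilobase with asparagine), FBL (126), NOLC1 (125) and NHP2 (121) followed NCL, and UTP15 (4.18) and DDX10 (4.65) were the lowest.

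Between their start and end, 8 of the 57 genes hold annotated snoRNA genes on the same strand, namely NOP56, NOP58, DKC1, NCL, WDR43, TSR1, GNL3 and PPAN. Whether these lie in introns was not checked. All 8 fell, with a median log2 fold change of -0.81, and 39 of the other 49 fell, with a median of -0.99. The share of all genes that were lower was 26.2%. After the GC correction the medians were -0.97 and -0.85. Exons of 25 of the 57 genes overlap a gene on the other strand, 11 of them by over 500 bases, and exons of 11 overlap another gene on the same strand. The strand setting of the counting is not given in the sources used here, so reads of such pairs cannot be told apart. The longest antisense overlaps were 3100 bases of EMG1 with LPCAT3 and 2095 bases of HEATR1. On the same strand, NOP2 shares 2550 bases with AC006064.6, and PPAN shares 1544 bases with P2RY11 and a read-through of both. The levels of NOP2 and PPAN are uncertain for that reason.

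Genes of the same pathway outside the 57 were taken from lists of 136 genes, all of which were tested. The lists were chosen like the 57, with earlier results of these data known. Of these 59 fell and 13 rose, with a median log2 fold change of -0.31, and the background shares were the 26.2% and 25.1% given above. Without library 2 of the arm with asparagine 38 were lower, against 15.3% of all genes. Without depleted library 1, 72 were lower and 33 higher, against 41.3% and 40.5% of all genes. That fit gave 20 lower and 8 higher of the other small subunit factors, 21 and 8 of the other large subunit factors, 8 and 3 of the exosome, 6 and 1 of the snoRNP assembly genes, and 12 and 6 of the polymerase list. Of 36 other small subunit factors 19 fell and 1, FCF1, rose. RRP7A went from a mean of 172 ± 9.21 to 62.7 ± 29.8 CPM (SD, n = 3 each, log2 fold change -1.54) and PWP2 from 103 ± 4.15 to 36.3 ± 9.25 CPM (-1.51). Of 43 other large subunit factors 15 fell and 2, NVL and RSL24D1, rose, and LAS1L (-1.40) and NLE1 (-1.46) had the largest decreases. Of 14 genes of the RNA exosome, which trims the precursor, 5 fell and EXOSC8 rose. EXOSC5 was at -1.27 and EXOSC2 at -1.19, and EXOSC8 went from 61.5 ± 0.414 to 121 ± 16.1 CPM (SD, n = 3 each).

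Of all genes, 26.2% were lower and 25.1% higher. Of 8 snoRNP assembly genes 6 fell and none rose, led by RUVBL2 (-0.93) and PIH1D1 (-0.85). Both lost the call in each fit that left out 1 library other than depleted library 1 (adjusted p = 0.0605 to 0.0863 for RUVBL2 and 0.0549 to 0.0809 for PIH1D1). Of 20 genes of RNA polymerase I and its factors 11 fell and 2, TAF1A and TTF1, rose. CD3EAP, a subunit of the polymerase now also called POLR1G, was at 18.3, 16.98 and 18.2 CPM with asparagine and at 3.83, 3.13 and 2.39 CPM without it, 5.73-fold lower in the mean (log2 fold change -2.21, SE 0.16, adjusted p = 0.000247). POLR2L, a subunit shared by all nuclear polymerases, went from 119.7, 121 and 103 CPM to 63.2, 22.7 and 23.1 CPM (-1.79, SE 0.38, adjusted p = 0.00881). Neither gene overlapped between the groups.

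Of 15 noncoding host genes of snoRNAs, 7 rose and 3 fell, against 25.1% and 26.2% of all genes. Their median log2 fold change was 0.34. The median difference was 0.71 in depleted library 1 and 0.16 in each of the other depleted libraries. Without library 1 the median was 0.16, with 7 higher and 5 lower, against 40.5% and 41.3% of all genes. GAS5, SNHG1, SNHG5, SNHG8, SNHG12, ZFAS1 and EPB41L4A-AS1 rose, and SNHG3, SNHG16 and DANCR fell. ZFAS1 went from 99.0, 105 and 109.6 CPM to 468, 387 and 357 CPM, 3.86-fold higher in the mean (log2 fold change 1.93, SE 0.14, adjusted p = 0.000215). DANCR went from 80.7, 83.0 and 77.4 CPM to 25.1, 15.5 and 18.6 CPM, 4.07-fold lower (-1.998, SE 0.18, adjusted p = 0.000474). Both were fully separated between the groups, in opposite directions. The protein-coding hosts among the 57 genes named above all fell, and the difference between coding and noncoding hosts was not tested. After the GC correction 90 of the 133 pathway genes with a GC value were lower and 10 higher, against 34.3% and 35.2% of all genes. Of the noncoding hosts 7 were higher and 3 lower under that correction. GAS5 and SNHG8 were then no longer past the threshold (adjusted p = 0.0967 and 0.104), so these 7 were not the same genes as the 7 named above. The rises of FCF1, NVL, RSL24D1 and EXOSC8 were also lost under that correction, with adjusted p of 0.416, 0.055, 0.145 and 0.0715.

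**Figure D5:**
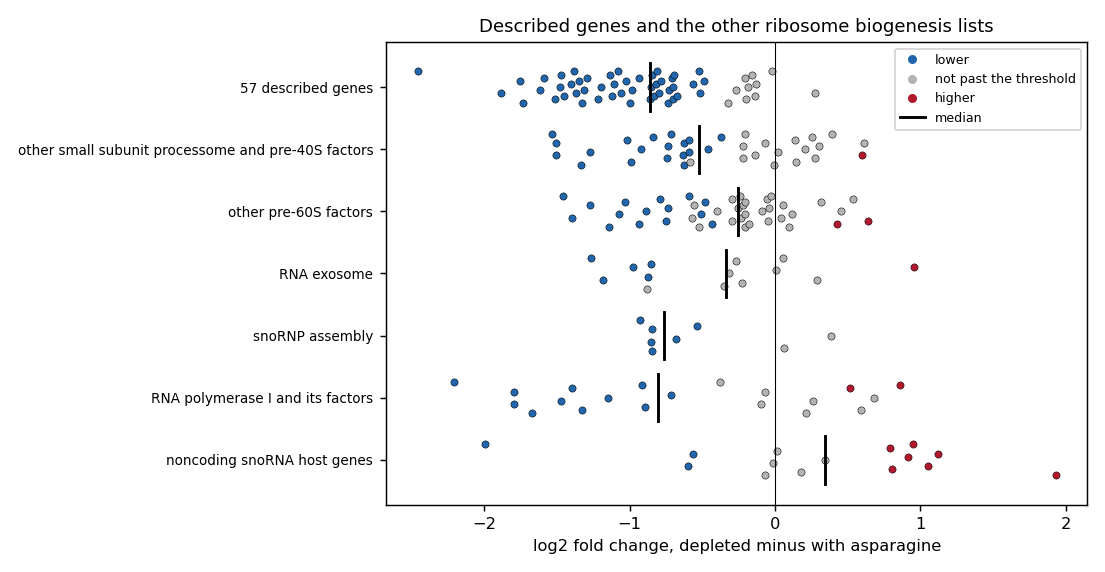
Log2 fold change, depleted minus with asparagine, of each of the 57 described genes (top row) and of the genes in 6 further lists, colored by the call at an adjusted p of 0.05, with a bar at each median. Medians lie below 0 in each list except that of the noncoding snoRNA host genes, at 0.34.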

How the data were processed

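Total RNA of RS4;11 cells was sequenced in 6 libraries, 3 per arm. The authors used STAR, featureCounts of Subread and FastQC on the GRCh38 build, per the submitters' processing notes. Not given in the sources used here were versions, annotation, strand setting, scaling and the filter on low genes. The table deposited by the authors holds a signal in normalized CPM for each gene, and its columns were matched to samples by arm and replicate number. Each value was a whole multiple of what 1 read is worth in its library (100% within 1e-06 reads), which gives the depth and the reads behind a value. Separate cultures are not stated in the labels. The p-values therefore rest on the spread between libraries alone, and this spread may be technical.

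Values were fitted in R 4.3.3 with limma 3.58.1 on log2(CPM + 1), group as the only term, all 6 libraries, moderation with an intensity trend, and Benjamini-Hochberg adjustment over the 11892 genes that reached 1 CPM in 3 or more libraries. The threshold was 0.05 (two-sided). Log2 fold changes are depleted minus with asparagine and understate changes of low genes. A fold is a ratio of group means in CPM. The GC correction removed from each library a lowess trend (span 0.3) of its deviation from the gene mean on transcript GC content (GENCODE 29, 11333 genes tested). The fit was also run on simulated data with independent noise in each gene. Those data had no GC trend and no library that stood apart, so they could not test the fit for either.

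The 57 genes, the lists and the tests were chosen with earlier results of these data known. Named with values in every library were, per role, the 2 largest and the smallest change past the threshold and the gene of highest CPM, all listed snoRNP proteins, PES1, BOP1 and WDR12, and each gene that rose or missed the threshold. Of each other list the 2 largest changes with at least 5 CPM were named. Further genes were named where a kind held 5 or fewer, or as the rest of a role, after their values had been seen. Alternatives were other pseudocounts, filters and scalings, a replicate block, leaving out libraries, the GC correction and, added after seeing the data, limma-voom weights.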

Additional observations from a re-analysis of the deposited data

How the results depend on the processing

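The count of 47 lower genes was 47 under pseudocounts of 0.25 and 4 CPM, without a filter, with a filter at 5 CPM and with voom weights. It was 45 under rescaling by a trimmed mean and under quantile normalization (NOP58 and WDR43 lost), and 57, 56 and 56 with the GC correction alone, with the replicate block and without depleted library 1. Leaving out each library in turn gave 38 to 47 lower and 0 to 2 higher of the 57, 1814 to 4913 lower and 1728 to 4812 higher of all genes, and 38 to 72 lower and 8 to 33 higher of the 136 other pathway genes. The highest value of each of these 6 ranges came without depleted library 1. All genes lower came to 1845 and 1814 without library 1 or 2 of the arm with asparagine and to 1975 without depleted library 2. The 59 other pathway genes lower became 90 with the GC correction and 102 with it and without depleted library 1. Of all genes, 34.3% and 38.8% were lower in these 2 fits. The causes were not tested. Correlations of same-numbered deviations from the group means were 0.083, -0.645 and 0.686, and not every sample correlated best with its own number. Because depleted library 1 stood apart, these values cannot show whether the samples were paired. The replicate block gave 46 lower and 0 higher of the 57.

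Among the named genes, directions turned only in those that had missed the threshold. With each library left out in turn, log2 fold changes ran from -0.32 to 0.052 for DDX21, -0.30 to 0.12 for UTP15, -0.29 to 0.12 for UTP20, -0.21 to 0.33 for NOC3L and -0.27 to 0.13 for DDX18, with each highest value without depleted library 1. DDX21 was at 0.018 under quantile normalization, and NOC3L at 0.02 and 0.09 without library 1 or 3 of the arm with asparagine. HEATR1 was at -0.16 with the GC correction, -0.16 with the block added and -0.13 without depleted library 1. With 3 libraries per arm and 1 that stood apart, the 95% interval of NOC3L ran from -0.74 to 0.71. Count models on the recovered reads, planned as alternatives, were not run.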
